A study of Mus musculus with 6 samples.

Results

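Protocadherins are cadherin-superfamily adhesion proteins of neurons and other cells, and 68 of the 17524 genes measured in mouse trigeminal ganglion were protein-coding genes whose symbol starts with Pcdh. They comprised 14 Pcdha, 21 Pcdhb and 21 Pcdhg genes, which form 3 neighbouring clusters on chromosome 18, and 12 unclustered genes. Of the unclustered genes, 5 were of the delta-1 subfamily, 5 of the delta-2 subfamily and 2 of neither. The pseudogene Pcdhgb8 was the only further Pcdh row and was not a member.

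The trigeminal ganglion is the sensory ganglion of the face and the meninges. Poly(A)-selected RNA of wild-type (WT) mice was compared between a vehicle group and an NTG group, with 3 libraries each. The labels do not spell out NTG, most often short for nitroglycerin in migraine models, and give no dose, time, age, sex or strain. All 6 samples share tissue and genotype, and nothing says whether a library is 1 animal or a pool.

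Clustered protocadherins are read in combinations. Each Pcdha or Pcdhg isoform begins with a large variable exon that has its own promoter and encodes the whole extracellular and transmembrane part, and this exon is spliced to constant exons that are the same for every isoform of the cluster, whereas a Pcdhb gene is a single variable exon with no constant part. The proteins recognise matching copies on other membranes, and in mouse neurons this gives self-recognition of dendrites and axons, while the unclustered delta protocadherins are single genes with restricted patterns that act in axon growth, sorting and synapse formation.

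Promoters outside the clusters were taken from the RefSeq table (GRCm38.p6), which held 9 of the 10 members on other chromosomes. The 250 bases before a RefSeq transcript start are printed for Pcdh9, which had the smallest p of the unclustered members, and Pcdh10, the only unclustered member called after adjustment for base composition. Capitals mark CG, the dinucleotide that carries DNA methylation.
Pcdh9: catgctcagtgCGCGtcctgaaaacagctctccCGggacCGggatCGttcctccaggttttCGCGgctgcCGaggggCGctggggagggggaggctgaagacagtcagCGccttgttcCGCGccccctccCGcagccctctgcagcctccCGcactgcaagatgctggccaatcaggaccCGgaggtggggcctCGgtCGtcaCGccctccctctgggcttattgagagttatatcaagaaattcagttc
Pcdh10: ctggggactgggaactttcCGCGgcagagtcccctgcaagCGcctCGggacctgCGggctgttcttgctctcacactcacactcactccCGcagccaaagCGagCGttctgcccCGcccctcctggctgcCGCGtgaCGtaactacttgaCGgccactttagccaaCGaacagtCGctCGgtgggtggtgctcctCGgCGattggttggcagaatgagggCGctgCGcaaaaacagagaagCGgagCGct
The Pcdh9 window lies at chr14:93890680-93890929 on the minus strand and holds 18 CG. It precedes a RefSeq start inside the gene as the deposited table bounds it, not the table's outermost start, and a second, overlapping Pcdh9 window also holds 18 CG and is not printed. At least as many were found in 21.7% of the 32851 promoter windows of this length. The Pcdh10 window lies at chr3:45378148-45378397 on the plus strand and holds 22 CG, a number reached in 14.8% of windows. The median window held 6. The letters TATAAA, searched on both strands, were in neither window and in 12.4% of all windows, which describes the sequence and says nothing of a factor.

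The table held normalised reads, that is, read counts divided by a size factor for each library. The counts before that division summed over all rows to 18813027 to 23774244 per library. Such a sum can hold a read of shared exons in several rows and leaves out reads of no listed gene. All 68 members passed the filter on low values. At an adjusted p under 0.05 (limma on log2 of value + 1, adjusted over the 17475 genes tested), 24 members passed, and 25.8% of all genes tested did. Of these, 2 rose in NTG, where 12.3% of all genes tested did, and 22 fell, where 13.5% did. With edgeR on recovered reads the same counts of 2 and 22 were called, where 26% of all genes were called, 12.7% higher and 13.3% lower. The vehicle and NTG libraries did not overlap for 28 of the 68 members and for 39.7% of all genes tested. The 22 that fell were all 21 Pcdhg genes and Pcdh1, and the 2 that rose were Pcdh9 and Pcdh11x. The 21 Pcdhg calls are not 21 measurements, as the next paragraph shows. The labels do not say that replicates are different mice, and the spread behind each p-value may thus be technical.

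In the GENCODE vM21 annotation every Pcdha gene ends in the same 3 constant exons of 2860 bases, and every Pcdhg gene in 3 others of 2116 to 2119 bases. The deposited rows of a cluster were nearly the same number. In Pcdhg the lowest row was Pcdhgc5, whose mean 19 of the other 20 rows exceeded by 1.39% to 7.88%. In Pcdha the lowest row was Pcdha8, which 11 of the other 13 rows exceeded by 1.52% to 10.4%. The reads of the constant exons therefore could not be told apart by isoform in these rows. The lowest row of each cluster is given below as its shared reads, an upper limit on reads of the constant exons, and each other row's excess over it as that isoform's own reads. Own reads of Pcdha8 and Pcdhgc5 cannot be had this way.

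**Figure D1:**
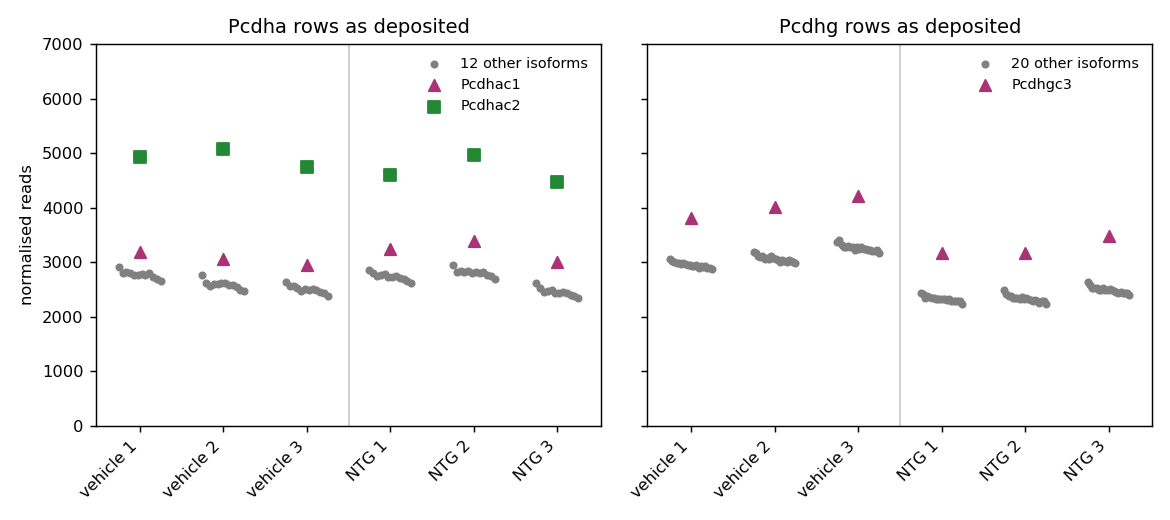
Normalised reads (vertical axis) of every Pcdha row (left) and Pcdhg row (right) in the 3 vehicle and 3 NTG libraries (horizontal axis), 1 point per gene and library. Apart from Pcdhac1, Pcdhac2 and Pcdhgc3, the rows of a cluster lie in a narrow band in each library, and the whole Pcdhg band is lower in the 3 NTG libraries.

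The Pcdhg cluster encodes the gamma protocadherins, which mouse spinal interneurons need for survival and which shape dendrite arbors. Its shared reads (row Pcdhgc5, chromosome 18, 37819546 to 37841873, GRCm38) were 2878, 2992 and 3161 in vehicle and 2237, 2232 and 2399 in NTG. The lowest vehicle library lay above the highest NTG library. The shared reads fell by 0.39 on the log2 scale (SE 0.06, 95% interval -0.52 to -0.27, adjusted p = 8.6e-05), from a mean of 3010 ± 142 to 2289 ± 95.03 (SD, n = 3 each), or 0.761-fold. The fall passed the threshold without each library in turn. In bulk tissue, fewer cells of a type and less RNA per cell cannot be told apart.

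Across all 21 Pcdhg rows as deposited, the log2 fold change ran from -0.40 to -0.29, with adjusted p from 7.7e-05 to 0.000955. The members with the smallest p were Pcdhgb5, Pcdhgc5, Pcdhga2, Pcdhga9 and Pcdhga4, with log2 fold changes of -0.40, -0.39, -0.38, -0.38 and -0.38. The standard error of each was 0.06, and Pcdhgc3 was the row nearest 0. In all 21 rows the NTG libraries lay below the vehicle libraries, a pattern in this direction that 20% of all genes tested showed.

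No fall was called in the own reads of the gamma isoforms. Of the 20 isoforms with own reads, 0 were called lower in limma and 1 was called higher, with 12.3% of all features higher and 13.4% lower in that fit. The log2 fold change was positive in 15 of 20, with a median of 0.24, where the median of all genes tested was 0.00096. The same row, Pcdhgc5, is subtracted from all 20, so a change or noise in it moves them together. They are not 20 separate measurements. The 18 that are not C-type exceeded that row by only 1.39% to 7.88%. Summed over the isoforms, own reads were 2384, 2422 and 3061 in vehicle and 2737, 2884 and 2819 in NTG, and the groups overlapped. Own reads amounted to 82.8%, 80.9% and 96.9% of the shared reads in vehicle and to 122%, 129% and 117% in NTG, with no overlap. The divisor is the shared reads, which fell, so these percentages are not separate from that fall.

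Pcdhgc3 is a C-type isoform, a class held to be expressed without the random promoter choice of the others. It held the most own reads of the cluster, 36.8% of the total. Its deposited row was 3813, 4014 and 4214 in vehicle and 3173, 3176 and 3471 in NTG (log2 fold change -0.29, SE 0.06, adjusted p = 0.000955). Its own reads were 935, 1022 and 1053 in vehicle and 937, 944 and 1072 in NTG. These overlapped, and the log2 difference of -0.03 did not pass the test (95% interval -0.19 to 0.13, adjusted p = 0.825). Relative to the shared reads, own reads of Pcdhgc3 were 32.5%, 34.2% and 33.3% in vehicle and 41.9%, 42.3% and 44.7% in NTG. All 3 NTG libraries were above all vehicle libraries, and an exact two-sided permutation test gave p = 0.1, the smallest that 3 against 3 allow. The divisor is the shared reads, already called lower, so this ratio is not a result separate from that fall. Of the 2 such ratios tested, the other, Pcdhac2 own reads over Pcdha shared reads, overlapped between groups (p = 0.2, exact permutation test).

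Among the other gamma isoforms, Pcdhgc4, the C-type isoform on which survival of mouse spinal interneurons depends, held 73.0, 80.3 and 116 own reads in vehicle and 80.7, 92.8 and 91.9 in NTG. The groups overlapped, with a log2 difference of 0.0066 (95% interval -0.43 to 0.44, adjusted p = 0.987). Pcdhga12, chosen after its values were seen, held 100.3, 93.7 and 112 own reads in vehicle and 150, 139 and 133 in NTG. All NTG libraries were higher (log2 fold change 0.46, SE 0.17, adjusted p = 0.0489), but the call was lost in 5 of the 6 fits without 1 library, all but that without vehicle replicate 3 (adjusted p up to 0.188 without NTG replicate 1). The 18 isoforms that are not C-type together held 1376, 1320 and 1893 own reads in vehicle and 1720, 1847 and 1655 in NTG, so vehicle replicate 3 was the highest of its group and overlapped NTG.

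**Figure D2:**
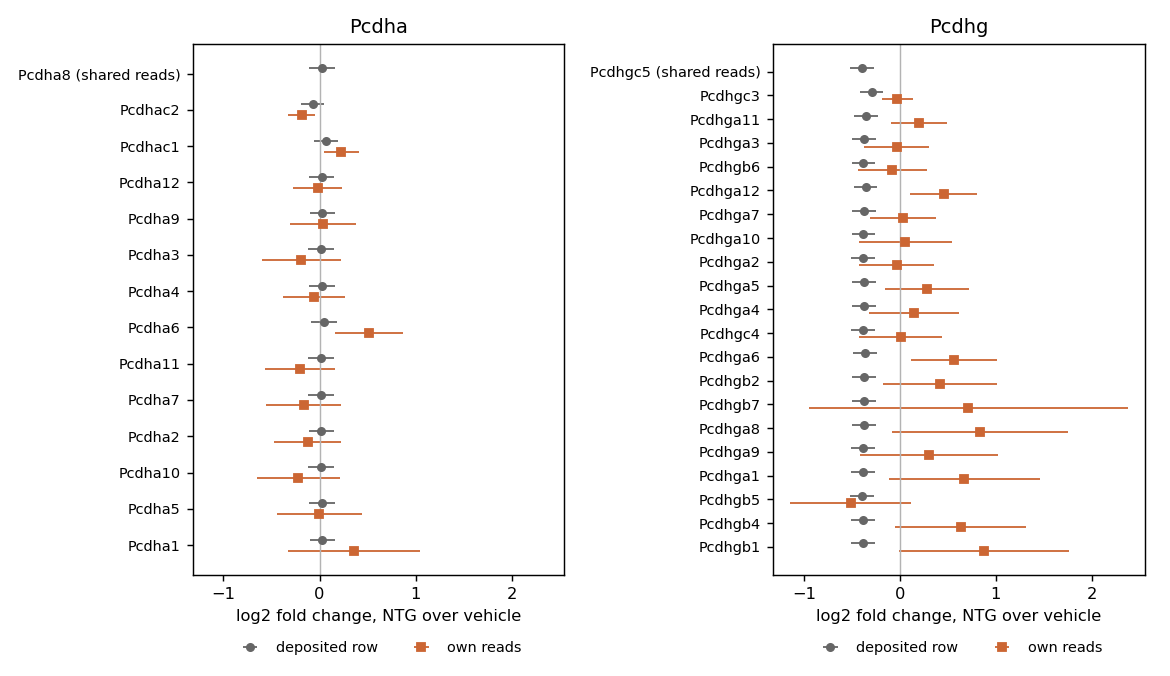
Log2 fold change of NTG over vehicle (horizontal axis) with its 95% interval for each Pcdha (left) and Pcdhg (right) isoform, as deposited (grey circles) and for own reads above the lowest row (orange squares). Deposited Pcdhg rows all lie near the -0.39 of the shared reads, while own reads of 15 of 20 isoforms are above 0 with wide intervals. All 20 have the same row subtracted and are not separate measurements.

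Several measures moved together with the Pcdhg shared reads. The variable exons of Pcdhg had a median GC content of 52.6%, against 53.7% in the constant exons. The 1565 genes within 1 percentage point of the GC content of the Pcdhgc5 transcript had a median log2 fold change of -0.11. With each library's trend over GC content and length removed, the shared reads still fell by 0.30 with the constant exons' GC content (adjusted p = 0.000653) and by 0.28 with that of the whole Pcdhgc5 transcript (adjusted p = 0.000916). Of 10 neuronal markers 5 fell and 2 rose, where 13.5% and 12.3% of all genes did, and their summed level was 432741 to 452114 in vehicle and 413876 to 430197 in NTG. After the adjustment 2 were lower and 2 higher, where 5.08% and 4.28% of all genes were, with a median log2 value of -0.00032. The part of the neuronal level in the Pcdhg result was not tested. Other rows over the constant exons fell as well. The pseudogene Pcdhgb8, which ends 1384 bases before Pcdhgc5, went from 992 ± 109 to 660 ± 55.1 (log2 fold change -0.59, adjusted p = 8.4e-05). The read-through genes Gm38667, Gm37013 and Gm38666, which end where Pcdhgc5 ends, fell by 0.38, 0.37 and 0.35. Their means of 2738, 2763 and 2743 reads were near the 2650 of Pcdhgc5. They are thus not measurements separate from the shared reads.

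The alpha protocadherins guide axon targeting and signal through the WAVE complex in mouse neurons. Of 14 Pcdha rows as deposited, 0 passed the test in limma or in edgeR on recovered reads, and 0 had an unadjusted p under 0.05. Shared reads (row Pcdha8, chromosome 18, 36992467 to 37187657) were 2654, 2465 and 2383 in vehicle and 2621, 2688 and 2340 in NTG. The libraries overlapped, and the log2 difference was 0.03 (SE 0.07, 95% interval -0.11 to 0.16, adjusted p = 0.807). The constant exons of Pcdha had a GC content of 42.2% and the variable exons a median of 53.1%. The value with GC content and length adjusted for depended on which GC content was used. With that of the whole Pcdha8 transcript it was -0.072 and was not called (adjusted p = 0.480), and with that of the constant exons it was -0.20 (adjusted p = 0.0202).

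Pcdhac2, a C-type isoform needed for the even spacing of serotonergic axons in mice, was the highest protocadherin row. It held 52.9% of the cluster's own reads, or 750 per kilobase of its variable exon, against 387 for Pcdhgc3. Its own reads were 2281, 2606 and 2360 in vehicle and 1974, 2275 and 2136 in NTG. All NTG libraries were below the vehicle libraries, with the smallest gap between vehicle replicate 1 and NTG replicate 2, and the test was missed (log2 fold change -0.18, SE 0.07, adjusted p = 0.0516). It was passed without vehicle replicate 1 (-0.22, adjusted p = 0.0292) and without NTG replicate 2 (-0.23, adjusted p = 0.0431). The log2 value was 0.02 with GC content and length adjusted for (adjusted p = 0.866).

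Pcdhac1, the other alpha C-type isoform, differed the other way in own reads, with 526, 598 and 564 in vehicle and 615, 704 and 655 in NTG. All NTG libraries were above the vehicle libraries, and the test was missed here too (log2 fold change 0.22, SE 0.09, adjusted p = 0.0646). It was also missed without each library in turn. With GC content and length adjusted for, the log2 value of Pcdhac1 was 0.24 (adjusted p = 0.0767), against 0.02 for Pcdhac2. C-type isoforms made up 66.5% to 69.0% of Pcdha own reads in vehicle and 65.5% to 67.3% in NTG. In Pcdhg, where Pcdhgc5 could not be counted, the C-type share was 38.2% to 45.5% in vehicle and 35.9% to 41.3% in NTG. In both clusters the groups overlapped.

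The 11 other alpha isoforms with own reads had means of 38.5 to 263 own reads. Only Pcdha6 of these passed the test, at 105, 126 and 90.3 own reads in vehicle and 163, 143 and 149 in NTG. All NTG libraries were higher (log2 fold change 0.51, SE 0.17, adjusted p = 0.0311). The call was lost without vehicle replicate 3 (adjusted p = 0.0914) and without NTG replicate 1, 2 or 3 (0.140, 0.0714 and 0.0720). The listed end of Pcdha6 runs 1240 bases past that of Pcdha8, so its own reads can include reads beyond the variable exon, and it was chosen after its values were seen.

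The Pcdhb genes, whose rows share no constant exon, were lower in level. How the counting treated reads that fit several Pcdhb genes is not known. Of 21, 0 passed the test in limma or in edgeR on recovered reads, and 1 had an unadjusted p under 0.05. Their means ran from 28.1 to 237 reads, or 8.42 to 67.6 per kilobase, and 16 of the 21 log2 fold changes were positive with a median of 0.15. With GC content and length adjusted for, that median was 0.02.

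Pcdhb17, the highest by reads, was 244, 226 and 260 in vehicle and 263, 215 and 213 in NTG. The libraries overlapped (log2 difference -0.08, 95% interval -0.35 to 0.19, adjusted p = 0.686). Pcdhb9, the highest per kilobase, was 226, 195 and 187 in vehicle and 213, 220 and 199 in NTG, again with overlap (log2 difference 0.06, 95% interval -0.22 to 0.34, adjusted p = 0.785). Pcdhb19 had the smallest p, at 71.9, 89.5 and 73.8 in vehicle and 98.5, 112 and 102 in NTG. Its NTG libraries were all higher, yet the log2 difference of 0.41 missed the test (SE 0.19, adjusted p = 0.123). Pcdhb21 and Pcdhb3 also had all NTG libraries above vehicle, so 3 of 21 did, and 19.7% of all genes tested did. The sum of the 21 genes was 1796, 1836 and 1869 in vehicle and 2032, 1949 and 1955 in NTG, a ratio of means of 1.08 with no overlap.

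**Figure D3:**
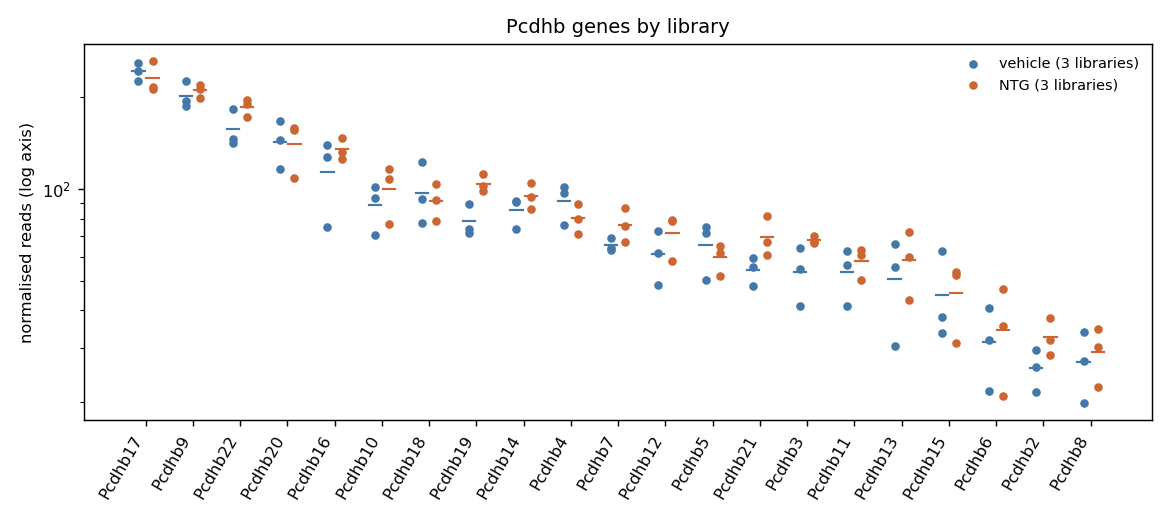
Normalised reads (vertical axis, log scale) of the 21 Pcdhb genes (horizontal axis, ordered by mean) in each vehicle (blue) and NTG (orange) library, with group means as bars. The groups overlap for 18 of the 21 genes, and none passed the test.

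Of the delta-1 genes, which carry a binding motif for protein phosphatase 1, Pcdh9 rose (chromosome 14, 93013700 to 93892834, minus strand). Pcdh9 was 2346, 2385 and 2274 in vehicle and 3000, 2978 and 2872 in NTG. Every NTG library was above every vehicle library, with a log2 fold change of 0.34 (SE 0.06, 95% interval 0.22 to 0.46, adjusted p = 0.000213), and the call held without each library in turn. Its transcript has a GC content of 42.6%, and the 1083 genes within 1 percentage point had a median log2 fold change of 0.23. With GC content and length adjusted for, the value was 0.11 and was not past the threshold (adjusted p = 0.179).

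Pcdh11x, the X-linked delta-1 protocadherin (chromosome X, 120290238 to 120910622), was 93.7, 107 and 87.0 in vehicle and 162, 126 and 153 in NTG. All NTG libraries were higher (log2 fold change 0.61, SE 0.17, 95% interval 0.25 to 0.97, adjusted p = 0.0130). The call was lost without NTG replicate 1 (adjusted p = 0.0876) or NTG replicate 3 (0.0538). Its transcript was the poorest in GC of all members, at 36.3%, and its 110 neighbours in GC content had a median of 0.41. After the adjustment the value was 0.22 (adjusted p = 0.497).

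Pcdh1, an adhesion protein of epithelia and vessels that is also a receptor for New World hantaviruses, fell (chromosome 18, 38185914 to 38212048, minus strand). It was 3235, 3921 and 3978 in vehicle and 2637, 2824 and 3338 in NTG. NTG replicate 3 lay above vehicle replicate 1, so the groups overlapped, and the log2 fold change was -0.34 (SE 0.10, 95% interval -0.55 to -0.13, adjusted p = 0.0234). The call was lost without vehicle replicate 2 (adjusted p = 0.0841), vehicle replicate 3 (0.0698), NTG replicate 1 (0.0684) or NTG replicate 2 (0.0790). Its transcript was the richest in GC of all members, at 60.7%, and its 559 neighbours in GC content had a median of -0.30. After the adjustment the value was -0.03 (adjusted p = 0.837).

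Pcdh7, the highest unclustered protocadherin by reads, was 3183, 4198 and 3740 in vehicle and 4172, 4001 and 4359 in NTG. Vehicle replicate 2 lay within the NTG range, and the log2 difference of 0.18 missed the test (95% interval 0.01 to 0.35, adjusted p = 0.114). Without vehicle replicate 2 it was 0.27 (adjusted p = 0.0157), and without vehicle replicate 1 it was 0.075 (adjusted p = 0.428). The 1412 genes of like GC content had a median of 0.16. With GC content and length adjusted for, the value for Pcdh7 was 0.02 (adjusted p = 0.933). Pcdh20 was near the floor of the assay, at 4.41 to 13.4 reads in vehicle and 10.5 to 17.1 in NTG (log2 difference 0.58, 95% interval -0.53 to 1.69).

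**Figure D4:**
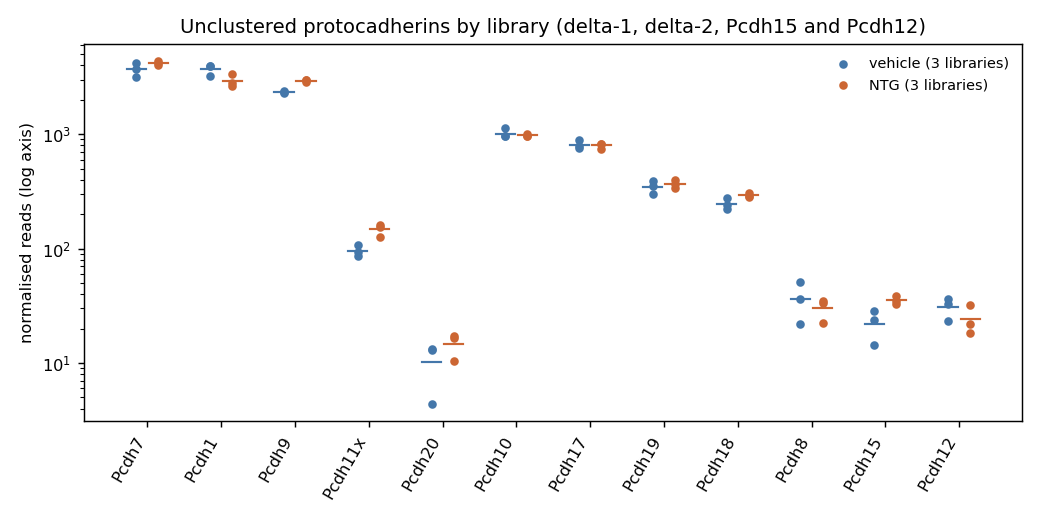
Normalised reads (vertical axis, log scale) of the 12 unclustered protocadherins (horizontal axis) in each vehicle (blue) and NTG (orange) library, with group means as bars. Pcdh9 and Pcdh11x are higher in all 3 NTG libraries, and Pcdh1 is lower on average with overlap.

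Of the 5 delta-2 genes, several of whose proteins recruit the WAVE complex through Nap1, 0 passed the test in limma, and 1 had an unadjusted p under 0.05. Pcdh10, needed for axon growth in the mouse forebrain, was 963, 1126 and 956 in vehicle and 974, 1001 and 968 in NTG. The libraries overlapped (log2 difference -0.04, 95% interval -0.20 to 0.12, adjusted p = 0.720). The 1230 genes of like GC content had a median of 0.22, and with GC content and length adjusted for, Pcdh10 was lower by a log2 value of -0.26 (adjusted p = 0.0209). Pcdh17, which brings the WAVE complex to contacts between growing axons in mice, was 785, 884 and 761 in vehicle and 828, 828 and 738 in NTG, with overlap (log2 difference -0.02, 95% interval -0.19 to 0.15).

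Pcdh19, whose human counterpart is mutated in an epilepsy that affects mainly females, was 299, 356 and 392 in vehicle and 369, 338 and 397 in NTG. The libraries overlapped (log2 difference 0.08, 95% interval -0.16 to 0.32). Pcdh18 was 275, 240 and 220 in vehicle and 306, 289 and 281 in NTG. Its NTG libraries were all higher, but the log2 difference of 0.26 missed the test (adjusted p = 0.126). Pcdh8, an activity-regulated synaptic protocadherin, was 21.8, 51.5 and 36.4 in vehicle and 33.5, 22.4 and 34.7 in NTG, a spread within vehicle wider than the difference.

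The 2 remaining genes are known from other cells. Pcdh15 forms the tip links of inner-ear hair cells and was 28.3, 23.7 and 14.3 in vehicle and 38.8, 35.2 and 32.9 in NTG. All NTG libraries were higher, and the test was missed (log2 difference 0.71, SE 0.34, adjusted p = 0.136). Pcdh12, a vascular endothelial protocadherin, was 36.0, 32.9 and 23.1 in vehicle and 22, 32 and 18.2 in NTG, with overlap (adjusted p = 0.502). The Rnf14 gene overlaps Pcdh12 on the other strand at a far higher level and rose by a log2 value of 0.28, and with the strand setting of the counting not known, reads of Rnf14 in the Pcdh12 row cannot be told apart.

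A trend over base composition ran through the whole table, and members differed in how they lay to it. Pcdh9 and Pcdh1 were within the quartiles of the genes of like GC content, whereas the Pcdhg rows and Pcdh10 were below them. Pcdh11x, at 0.61, was above the upper quartile of 0.57 of its neighbours. For each library, the deviation from each gene's mean log2 level over all libraries was fitted against transcript GC content. The slopes per 10 percentage points were 0.12, 0.19 and 0.15 in vehicle and -0.21, -0.17 and -0.08 in NTG. Slopes of such deviations cancel over all libraries, so the opposite signs of the group means follow from the centring. The slopes show only that GC-rich genes were lower in NTG relative to vehicle, with every vehicle slope above every NTG slope. With each library's trend over GC content and length removed, 0 members rose, where 4.28% of all genes did, and 21 fell, where 5.08% did. Those that fell were 20 Pcdhg rows and Pcdh10. The exception in Pcdhg was Pcdhgc3 (log2 value -0.14, adjusted p = 0.0683). With shared reads counted once, the adjusted fit called 2 higher (Pcdha6 and Pcdhga12, where 4.24% of features were) and 3 lower (the shared reads of Pcdhg and of Pcdha, and Pcdh10, where 4.99% were). Whether the trend is technical was not tested.

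**Figure D5:**
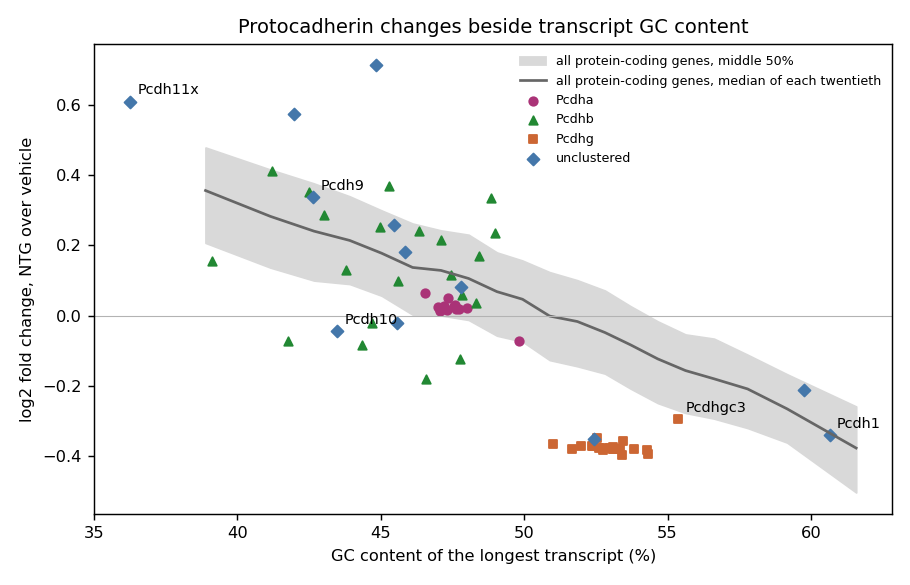
Log2 fold change of NTG over vehicle (vertical axis) against GC content of the longest transcript in percent (horizontal axis) for the members, with the median and quartiles of all protein-coding genes in bins of equal gene number. Pcdh9 and Pcdh1 lie within the band of genes of like GC content, and the Pcdhg rows lie below it. Pcdh11x lies at a lower GC content than the band covers.

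CTCF and cohesin bind the promoters of clustered protocadherins and join them to distant enhancers. In the list of these proteins, 9 of 11 rose and 0 fell, where 12.3% and 13.5% of all genes did, with a median log2 fold change of 0.28. Ctcf itself was 817 in vehicle and 814 in NTG on average and did not pass the test (log2 difference -0.0077, SE 0.09, adjusted p = 0.962). The cohesin subunit Stag2 went from 935 ± 43.1 to 1431 ± 107 (log2 fold change 0.61, SE 0.07, adjusted p = 9.3e-06), Pds5b from 992 ± 17.3 to 1394 ± 86.1 (0.49), Smc1a from 2344 ± 161 to 2955 ± 213 (0.33), and Pds5a from 1347 ± 83.1 to 1676 ± 73.1 (0.32). With base composition and length adjusted for, 3 of 11 rose, where 4.28% of all genes did, with a median of 0.05. Of 12 genes of DNA methylation and silencing, 6 rose and 1 fell. Smchd1, which represses clustered protocadherins in mice, rose by a log2 value of 0.38 (adjusted p = 0.00184) and Setdb1, which keeps the cluster methylated in mouse neurons, by 0.31 (0.00724). Trim28, its partner, fell by 0.31 (0.00214). After the adjustment 1 of these 12, Setdb1, rose and 0 fell.

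Among kinase and processing partners 2 of 11 rose and 3 fell. Of all genes tested, 12.3% rose and 13.5% fell, the shares for this list and the lists below. Fyn, a kinase bound by alpha protocadherins, fell by 0.18 (adjusted p = 0.0259), and Psen2, of the gamma-secretase that cleaves protocadherins, fell by 0.37 (0.00148). Nlgn1, a synaptic adhesion protein that gamma protocadherins bind in mice, rose by 0.51 (0.00743), and Ctnnb1, beta-catenin, rose by 0.14 (0.0297). The adjustment ended the calls of Psen2 (-0.22, adjusted p = 0.0681), Nlgn1 (0.16, adjusted p = 0.512) and Marcks, which had also fallen (-1.01, adjusted p = 0.0791). With it 1 of the 11 rose and 2 fell, where 4.28% and 5.08% of all genes did. Those that fell were Fyn and Adam10, and Adam10 had not been called before (adjusted p = 0.426 in limma). In the WAVE complex 2 of 9 rose (Cyfip1 by 0.26 and Abi2 by 0.25) and 1 fell (Wasf2, by 0.17), and after the adjustment 0 did. Of the classical and type II cadherins 3 of 20 rose and 0 fell, led by Cdh19, a cadherin of Schwann cell precursors, from 872 ± 101 to 1498 ± 92.6 (0.78). Of the large and atypical cadherins 0 of 17 rose and 3 fell: Celsr2 by 0.34, Clstn1 by 0.21 and Fat2 by 1.74, the last from a mean of 26.5 ± 3.93 reads. After the adjustment 1 of the 20 classical and type II cadherins, Cdh19, rose (0.44) and 1 of the 17 others, Fat2, fell (by 1.73), while Celsr2 (-0.13, adjusted p = 0.173) and Clstn1 (0.0082, adjusted p = 0.916) no longer passed.

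The labelled tissue matched its markers, with neuronal, satellite glial and Schwann cell genes all detected. Satellite glial markers had 1 of 5 higher and 2 lower, and Schwann cell markers 1 of 5 higher and 3 lower. Endothelial markers had 1 of 5 higher and 1 lower, and mural markers 1 of 5 higher. Of all genes tested, 12.3% were higher and 13.5% lower. Summed satellite glial markers were 88514 to 92700 in vehicle and 75950 to 81702 in NTG. Fibroblast and macrophage markers had 1 of 5 lower each, with sums of 22242 to 25479 and 18755 to 22044 for fibroblasts and of 1684 to 1919 and 1478 to 1612 for macrophages, vehicle first. Skeletal muscle genes had 6 of 7 lower, at a summed 150 to 297 reads in vehicle and 56.4 to 61.8 in NTG. Central glial genes were detected too, at a summed 4444 to 6663 reads in vehicle and 4650 to 5150 in NTG. Of the 3 central glial genes tested 0 passed. After the adjustment 4 of the 7 muscle genes and 1 gene each of the satellite glial, Schwann cell and fibroblast lists were lower. None of these lists' genes were higher. Of all genes, 5.08% were lower and 4.28% higher in that fit. Their part in the protocadherin results was not tested.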

How the data were processed

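Poly-T-enriched RNA was made into strand-specific libraries and read in paired ends of 150 bases, per the labels' protocols. The submitters' processing notes name FastQC, HISAT2 and GRCm38. Which counter, strand setting and annotation were used is not given in the sources at hand. The deposited values are a signal, gene counts divided by each library's size factor. Low values were multiples of 0.867 to 1.10, and 100% of values were whole within 0.01 of a read, so whole reads could be recovered.

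Sample titles gave the groups. The main fit was limma-trend on log2(value + 1) with robust moderation, run two-sided on genes reaching 1 in 3 or more libraries. P-values were adjusted by Benjamini-Hochberg over all 17475 genes, with calls under 0.05. Fold changes on this scale understate those of low genes. The quasi-likelihood test of edgeR, on recovered reads, called 4544 genes and limma 4512. Own reads, alone and adjusted, were analyses chosen after seeing the data. GC content and length came from the longest GENCODE vM21 transcript, for 93.2% of genes and 68 of 68 members. For own and shared reads they came from the variable and constant exons. The trends were removed per library with mgcv.

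Members and gene lists were chosen with earlier results of these data known. Members named in full were those past the threshold (in Pcdhg the 5 with the smallest p), the 2 highest of each subgroup and the C-type isoforms. Of each pathway list, up to 4 called genes with the smallest p were named, and cell type markers are given as counts and sums. A gene that this rule chose is not reported here. Further members were named to complete the subfamilies or because their libraries did not overlap. Marcks and Adam10 were named to account for the calls of the adjusted fit. Chi-square per degree of freedom between libraries of a group was 3.99 to 7.76, above sampling noise, so all 6 were kept as separate samples. At these summed counts 3 reads equal 0.126 to 0.159 CPM, for counting error only. Scripts were tested on simulated data.

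The alternatives were other pseudocounts, filters and scalings, DESeq2 and limma-voom, a minimum fold, the replicate block, base composition, and leaving out each library. Versions were R 4.3.3 with mgcv 1.9.3, DESeq2 1.42.0, edgeR 4.0.16 and limma 3.58.1, and Python 3.11.15 with scipy 1.17.1, numpy 2.4.6, pandas 2.3.3 and matplotlib 3.10.9.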

Additional observations from a re-analysis of the deposited data

How the results depend on the processing

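The counts of members, 2 higher and 22 lower, were the same with the replicate number as a block, but the numbers do not pair the libraries (correlations of same-numbered deviations 0.03, -0.07 and 0.05). With a minimum fold of 1.2, 0 members were higher and 0 lower, and 313 genes were called in all. With the GC and length adjustment 0 were higher and 1523 genes were called, and with the block added 0 and 2131. With own reads 4 were higher and 2 lower, and with own reads and the adjustment 3 were lower and 1503 genes were called. Leaving out 1 library gave 1 to 3 members higher, 21 to 22 lower and 2945 (without NTG replicate 2) to 4670 genes called. The summed Pcdh15 and Pcdh12 went from a log2 ratio of 0.18 to -0.35 without the higher gene.

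With the adjustment the sign turned for 20 of 68 rows, 13 of them Pcdha, and 7 of 33 own reads, none of which had passed in either fit. The shared reads of Pcdha went from 0.027 to -0.20 and were called lower with the constant exons' GC content. The 24 members compared here were those named by rule, with Pcdh8, Pcdh18, Pcdh19 and Pcdh20 added. Among them the sign turned, with or without the block, for Pcdhac1 (-0.061), Pcdhb9 (-0.022), Pcdh19 (-0.037) and Pcdh8 (0.077). In named own reads it turned for Pcdhac2 (0.023), Pcdhgc3 (0.17) and Pcdhga2 (0.040). Leaving out 1 library, the log2 value spanned 0 for 21 of 68 rows. Of those 24 they were Pcdh10 (-0.086 to 0.032), Pcdh17 (-0.064 to 0.044), Pcdh19 (-0.025 to 0.17) and Pcdh8 (-0.53 to 0.071). In named own reads they were Pcdhgc3 (-0.092 to 0.0067), Pcdhga2 (-0.12 to 0.057), Pcdhga4 (-0.051 to 0.36), Pcdhgc4 (-0.13 to 0.20) and Pcdhga9 (-0.11 to 0.68). The cause was not tested. Precision was limited by 3 libraries per group and, for most Pcdhb genes and own reads, by low read numbers.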
